A study of Mus musculus with 6 samples.

Results

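Protein tyrosine phosphatases of the Ptpr and Ptpn gene families were compared between Grem1+ and Grem1- bone marrow cells. Members were all genes whose symbol, on probe sets with exactly 1 symbol, is Ptpn followed by digits or Ptpr followed by 1 letter and an optional digit. This gave 34 of the 18193 named genes on the array, 18 receptor-type and 16 non-receptor, read by 86 of the 45101 probe sets. The Grem1+ group held 3 arrays of marrow cells sorted for Grem1, with no more said of the gate. The Grem1- group held 3 arrays of non-recombined marrow cells that lacked CD45 (a blood cell antigen), CD31 (endothelial) and Ter-119 (erythroid) in the sort. Both fractions came from the same 3 Grem1;TdTomato mice, bred on a C57BL/6J background, aged 6 to 8 weeks, recorded as male and given tamoxifen by mouth. The labels state neither how the reporter is driven nor a CD45 gate for the Grem1+ fraction, and no mice without tamoxifen are among the samples. Each array is 1 sorted fraction of 1 mouse.

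Protein tyrosine phosphatases remove phosphate from tyrosine residues and so oppose, or in some cases release, the action of tyrosine kinases. Receptor-type members span the membrane and carry extracellular domains that bind matrix, neighbouring cells or soluble ligands, while non-receptor members are placed in the cell by SH2, FERM, PDZ or other domains. In marrow the family is best known from blood cells, where the phosphatase CD45 switches on Src family kinases and SHP-1 restrains signalling, whereas SHP-2 acts downstream of growth factor receptors in most cell types, cartilage included.

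Values are log2 expression per probe set, and a value below log2 4 is called dim, a limit that was chosen and not measured. The arrays had medians of 3.74 to 3.81. The correlation of arrays across probe sets was 0.902 to 0.922 among Grem1+ arrays and 0.939 to 0.946 among Grem1- arrays, but 0.793 to 0.846 for arrays of unlike groups. The gene Grem1, which names the fractions, stood at 4.49, 4.14 and 8.61 in Grem1+ and at 3.69, 3.75 and 3.70 in Grem1-. Mouse 3 alone gave a large difference, and the mean of 2.04 (SE 1.04) missed the threshold (limma adjusted p = 0.248). Blood cell transcripts were present in both fractions: 13 of 17 pan-haematopoietic markers were lower in Grem1+ and 0 were higher, and their summed linear signal was 4590 to 8491 in Grem1+, against 26066 to 28018 in Grem1-. Of 14 chondrocyte markers 13 were higher in Grem1+, with a summed signal of 41895 to 49366 against 5618 to 8254 in Grem1-. The 3' minus 5' difference of Gapdh probe sets, a sign of RNA quality, was 2.98, 3.88 and 3.87 in Grem1+ and 2.31, 2.99 and 2.68 in Grem1-. It was higher in Grem1+ in every mouse. That of actin probe sets was 0.166, -0.031 and 0.138 in Grem1+ and 0.172, 0.173 and 0.147 in Grem1-, lower in Grem1+ in every mouse. The part of RNA quality in the differences was not tested. The female transcript Xist was at 10.60 and 11.04 in the Grem1+ and Grem1- arrays of mouse 3, against its label, and at most 2.99 on the other arrays. The labels do not say whether the mice were littermates or handled on 1 day.

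The comparison asked which phosphatases were higher or lower in the Grem1+ fraction. At the level of genes, 23 members had a probe set above log2 4 on at least 3 arrays and were tested, each on its brightest such probe set by mean. Ptprd, Ptprk, Ptprm and Ptprf, all receptor-type adhesion phosphatases, were higher in Grem1+, and Ptpn6 and Ptprj were lower. The other 17 did not pass the threshold of 0.05 (limma with the mouse as a block, Benjamini-Hochberg adjustment over all 10151 genes). Of all genes tested 11.7% were higher and 8.51% lower, 20.2% in all, and the 4 higher and 2 lower members are 26.1% of the 23. By kind, 4 of 12 tested receptor members were higher and 1 lower, and of 11 non-receptor members 0 were higher and 1 lower, a contrast that was not tested. When 1 mouse was left out, whichever it was, limma with the block passed 0 of all 10151 genes and so 0 members, while 2881 to 3018 genes and 8 to 11 of the 23 members had an unadjusted p under 0.05. Without mouse 3 the differences of the 6 genes were 5.75 for Ptprd, 3.05 for Ptprk, 2.60 for Ptprm, 2.14 for Ptprf, -3.56 for Ptpn6 and -1.43 for Ptprj.

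**Figure D1:**
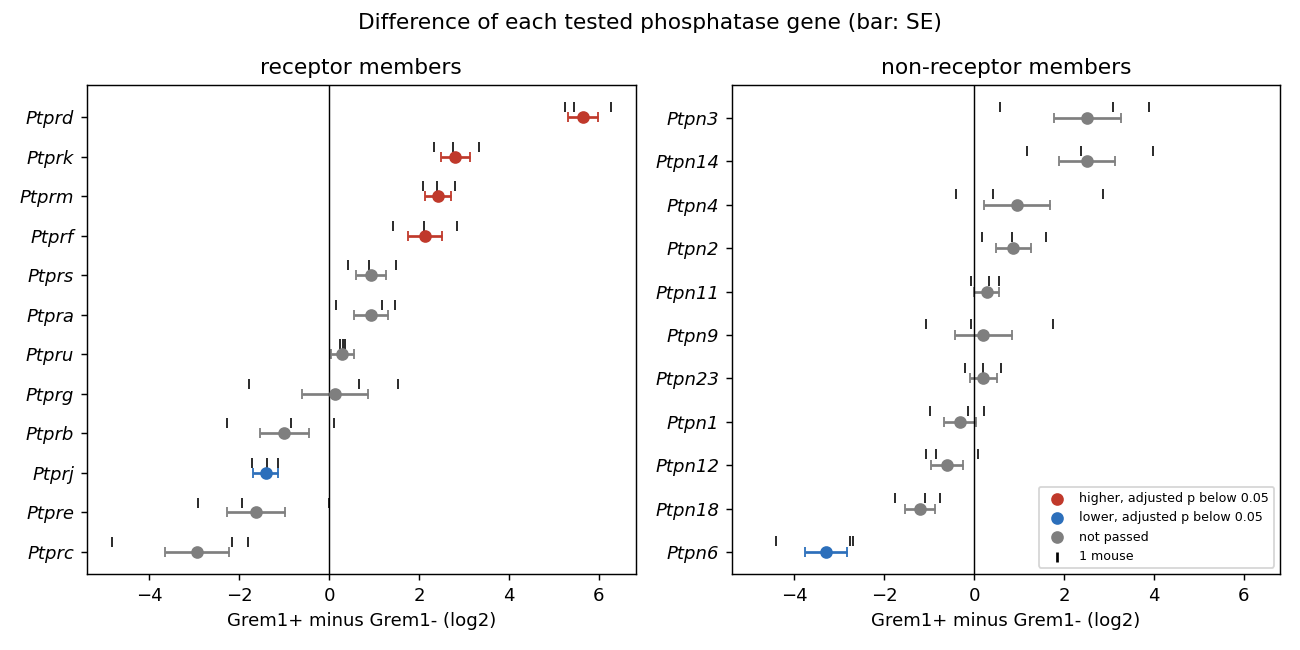
Difference between Grem1+ and Grem1- (x axis, log2) for each tested receptor and non-receptor member (y axis), with points and bars for the limma estimate and its SE and ticks for each of the 3 mice. Ptprd stands farthest to the right at 5.66, and the 6 coloured genes had an adjusted p below 0.05.

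The LAR subfamily, Ptprd, Ptprf and Ptprs, carries immunoglobulin and fibronectin repeats and binds heparan sulfate proteoglycans and synaptic adhesion proteins. Ptprd (1424886_at) stood at 9.18, 8.85 and 7.94 in Grem1+ and at 2.91, 3.61 and 2.48 in Grem1-. All Grem1- arrays were dim, so the gene was at least 25.2-fold higher in Grem1+, and the measured difference was 5.66 (SE 0.33, limma adjusted p = 0.00906). A second probe set of Ptprd (1435537_at) averaged 6.32 ± 0.62 in Grem1+ and 3.36 ± 0.41 in Grem1- (SD, n = 3), at least 4.98-fold higher (adjusted p = 0.0214 in the limma fit over all 18157 passing probe sets). Another one (1429052_at) had overlapping groups, since its Grem1+ array of mouse 3 was at 4.82 and the Grem1- array of that mouse at 4.83. The other 4 probe sets of Ptprd did not pass the filter on dim values, and 3 of them were below log2 4 on all arrays.

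Ptprf, the gene of LAR itself, stood at 7.07, 6.36 and 6.34 in Grem1+ and at 4.22, 4.93 and 4.24 in Grem1- on 1420842_at. The groups did not overlap, and the difference of 2.13 (SE 0.38) passed (limma adjusted p = 0.0321). It lost its call without the filter on dim probe sets (adjusted p = 0.0610) and on its most variable probe set, 1420843_at, where it was 2.67 (adjusted p = 0.0679). Ptprs, a receptor for chondroitin and heparan sulfate chains, stood at 8.48, 8.26 and 7.84 in Grem1+ and at 6.99, 7.83 and 6.95 in Grem1-. Its groups lay apart by a narrow margin, and neither its difference of 0.94 (SE 0.33, limma adjusted p = 0.129) passed nor the 0.17 (SE 0.33) of its second probe set (adjusted p = 0.767).

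The MAM-domain subfamily, Ptprk, Ptprm and Ptpru on this array, binds its own kind on the neighbouring cell and acts at cell contacts. Ptprk (1423277_at) stood at 8.15, 8.05 and 6.68 in Grem1+ and at 4.82, 5.28 and 4.35 in Grem1-, a difference of 2.81 (SE 0.32, limma adjusted p = 0.0158). Ptprm stood at 7.98, 6.92 and 7.40 in Grem1+ and at 5.18, 4.52 and 5.32 in Grem1-, a difference of 2.43 (SE 0.29, limma adjusted p = 0.0165). Both genes had every Grem1+ array above every Grem1- array. Ptpru stayed close to the dim limit, at no more than 4.08 in Grem1+ and at 3.65 to 3.77 in Grem1-, and its difference of 0.30 (SE 0.25) did not pass (adjusted p = 0.468). The chondrocyte, osteoblast and stromal marker lists moved with these receptors: 13 of 14, 4 of 8 and 4 of 8 measured genes were higher in Grem1+ and 0 lower, and the summed signal was 4244 to 5329 against 1517 to 1633 for osteoblast and 4082 to 8596 against 1677 to 2823 for fibroblast and marrow stroma. No gene of the chondrocyte list or the stroma list was dim on every array of a group, while the osteoblast genes Sp7 and Phex were dim on all Grem1- arrays. The part of these cell types in the differences was not tested. In bulk samples a higher share of cells of a type and more RNA per cell cannot be told apart.

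**Figure D2:**
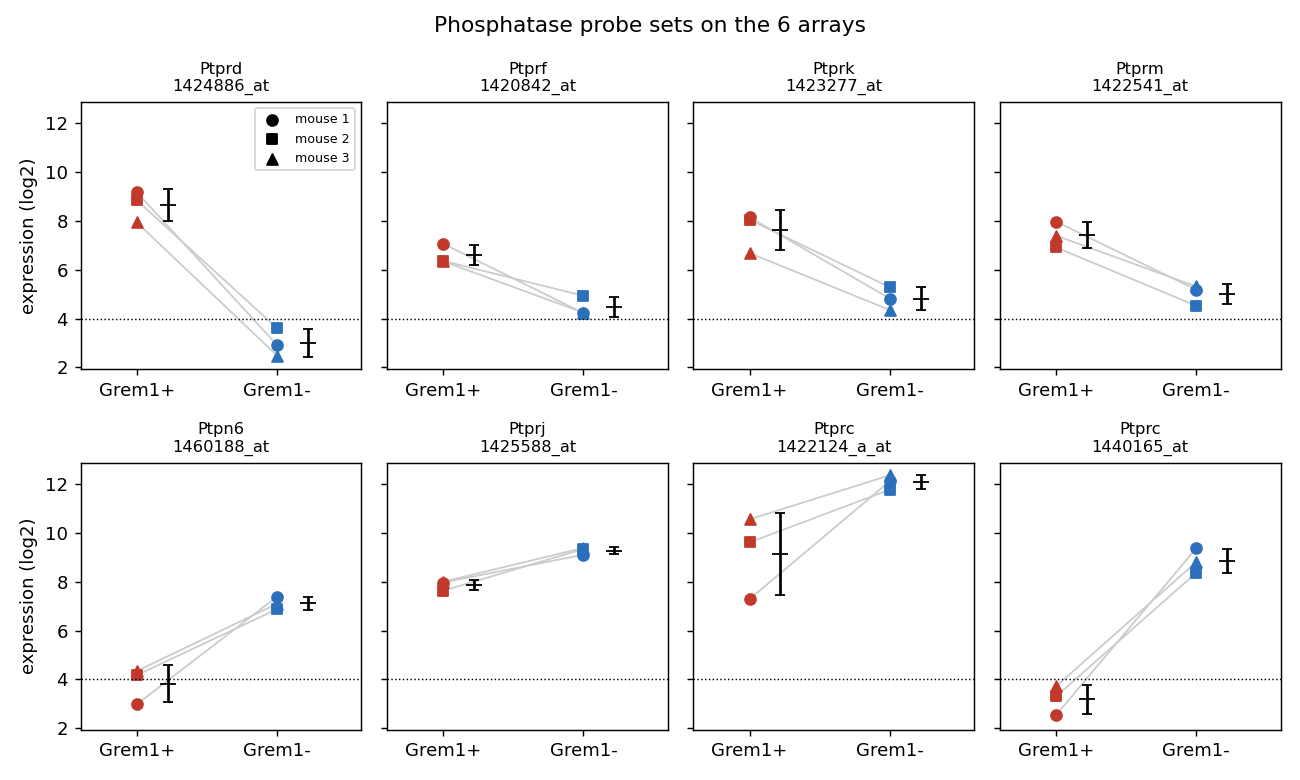
Expression (y axis, log2) of 8 probe sets in Grem1+ (left, red) and Grem1- (right, blue), with 1 symbol per mouse joined by grey lines, mean and SD as black bars (n = 3) and the dim limit of log2 4 as a dotted line. The upper panels show the higher genes, with the Grem1- values of Ptprd under the limit, and the lower panels show Ptpn6, Ptprj and the 2 probe sets of Ptprc, of which 1440165_at is under the limit on all Grem1+ arrays.

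Ptpn6 encodes SHP-1, an SH2-domain phosphatase of blood cells that inhibitory receptors recruit. On 1460188_at it stood at 2.97, 4.17 and 4.34 in Grem1+ and at 7.39, 6.87 and 7.09 in Grem1-. The Grem1+ array of mouse 1 was dim, the others were near the dim limit, and all were far below their partners. The difference was -3.29 (SE 0.46, limma adjusted p = 0.0214), or -2.95 with values below log2 4 set to 4, and its second probe set, 1456694_x_at, differed by -2.13 (SE 0.38, adjusted p = 0.0319 in the fit over probe sets). Ptpn11, the related gene of SHP-2, stood at 9.98, 9.91 and 9.77 in Grem1+ and at 9.43, 9.57 and 9.83 in Grem1- on 1451225_at. These groups overlapped, the difference was 0.28 (SE 0.28, adjusted p = 0.543), and the 3 probe sets ranged from -0.39 to 0.40.

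Ptprj encodes CD148, a single-domain receptor of haematopoietic, endothelial and epithelial cells with fibronectin repeats. On 1425588_at it stood at 7.97, 7.63 and 8.00 in Grem1+ and at 9.11, 9.34 and 9.39 in Grem1-. The arrays within each group lay close together, and the difference of -1.41 (SE 0.27) passed (limma adjusted p = 0.0383). A second probe set, 1455030_at, differed by -1.76 (SE 0.28, adjusted p = 0.0263 over probe sets), while on the most variable one, 1425587_a_at, the groups overlapped and -2.36 (SE 0.86) missed the threshold (adjusted p = 0.140 over probe sets). Ptprb, the gene of the vascular phosphatase VE-PTP and of the same subfamily, lay between 4.21 and 4.99 in Grem1+ and at 4.88, 6.47 and 5.64 in Grem1-. Its groups overlapped, and the test gave an adjusted p of 0.274. Of 10 endothelial genes, Cdh5, Kdr, Tie1, Emcn and Robo4 were dim on all 6 arrays, 0 of the 4 tested passed in either direction (limma), and the summed signal of the list was 104 to 171 in Grem1+, against 174 to 349 in Grem1-. Tek, the angiopoietin receptor, stood at 2.79, 2.46 and 2.40 in Grem1+ and at 4.87, 7.14 and 4.07 in Grem1- (adjusted p = 0.0649). Pecam1, the gene of the gate antigen CD31, stood at 3.71, 3.39 and 2.81 in Grem1+ and at 5.25, 4.23 and 4.91 in Grem1- (adjusted p = 0.0587). Both were dim on all Grem1+ arrays and lower there in every mouse, and Tek, like Ptprb, was highest in Grem1- of mouse 2. These 2 were named after their values were seen, and the median of the 4 tested genes was -1.09. For mice 1, 2 and 3 the list summed to 171, 128 and 104 in Grem1+ and to 184, 349 and 174 in Grem1-. The part of endothelial cells in the values of Ptprb was not tested.

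Ptprc, the gene of the gate antigen CD45, gave unlike answers on its 2 probe sets. On 1422124_a_at it stood at 7.29, 9.61 and 10.56 in Grem1+ and at 12.13, 11.78 and 12.37 in Grem1-. Its difference of -2.94 (SE 0.71) missed the threshold (limma adjusted p = 0.0609) but passed without the replicate block (adjusted p = 0.0442). The gene also passed with the stricter filter, with probe sets averaged, on its most variable probe set and with the eBayes trend. On 1440165_at it stood at 2.53, 3.30 and 3.71 in Grem1+ and at 9.38, 8.37 and 8.81 in Grem1-, at least 28.9-fold lower (adjusted p = 0.0106 over probe sets). No Grem1- array was dim on either probe set although the fraction was gated as CD45 negative. The Grem1+ arrays of mice 1, 2 and 3 had summed granulocyte signals of 3408, 8414 and 12186, in the same order as Ptprc on its first probe set. The pan-haematopoietic sums (4590, 5260 and 8491) and the monocyte and macrophage sums (93.5, 288 and 678) had that order too. The sums of the B lineage list and of the T and NK cell list did not, being highest in mouse 2. In Grem1- the granulocyte sums were 26958, 28673 and 28374, highest in mouse 2, where Ptprc was lowest on that probe set. The 10 of 13 measured granulocyte genes that passed were all lower in Grem1+, and 0 of the 13 were dim on every array of a group. What part blood cells had in these differences was not tested.

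The short-ectodomain subfamily, Ptpra and Ptpre, has small glycosylated extracellular parts and acts on Src family kinases. Ptpre, which haematopoietic cells and osteoclasts use, stood at 6.73, 7.92 and 6.12 in Grem1+ and at 8.68, 7.93 and 9.05 in Grem1- on 1418540_a_at. In mouse 2 both fractions had nearly the same value, and with -1.63 (SE 0.65) the gene missed the threshold (limma adjusted p = 0.163). It passed as lower with probe sets averaged, on its most variable probe set, and without mouse 2 when the replicate block was dropped. On 1418539_a_at the values were 5.23, 5.37 and 6.11 in Grem1+ and 8.72, 7.04 and 7.96 in Grem1-, and the difference of -2.34 (SE 0.48) passed (adjusted p = 0.0434 over probe sets), though not under cyclic loess (adjusted p = 0.0559) or without the filter (adjusted p = 0.0953). Of 7 osteoclast genes, Ocstamp, Dcstamp, Atp6v0d2, Oscar and Calcr were dim on all 6 arrays, and both tested genes missed the threshold (limma). Acp5, the tartrate-resistant phosphatase, stood at 3.67, 6.61 and 5.56 in Grem1+ and at 6.65, 6.98 and 5.01 in Grem1-. Ctsk, the gene of cathepsin K, stood at 4.73, 5.37 and 4.97 in Grem1+ and at 4.03, 3.73 and 2.57 in Grem1-, without overlap (1.58, SE 0.42, adjusted p = 0.0746). The list summed to 74.3 to 170 in Grem1+, against 71.0 to 179 in Grem1-, and its part in the values of Ptpre was not tested. Ptpra differed by 0.94 (SE 0.37, adjusted p = 0.164) and its second probe set by 1.15 (SE 0.28, adjusted p = 0.0594 over probe sets), with overlapping groups on both. Ptprg, whose extracellular part resembles carbonic anhydrase, was at 3.03 to 4.45 in Grem1+ and at most 4.82 in Grem1-, with a difference of 0.13 (SE 0.74) and no common direction among mice. Another Ptprg probe set, 1450122_at, which did not pass the filter, was at 6.62 on 1 Grem1+ array and at most 2.61 on the other arrays.

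Among non-receptor members with FERM or PDZ domains, which tie phosphatases to the cell cortex, values in Grem1+ were above those in Grem1- for Ptpn14 and Ptpn3. Ptpn14, a regulator of the YAP pathway, stood at 7.21, 5.58 and 5.20 in Grem1+ and at 3.22, 3.19 and 4.03 in Grem1- on 1421499_a_at. These groups lay apart, but 2.52 (SE 0.62) missed the threshold (limma adjusted p = 0.0627). Its second probe set, 1455359_at, stood at 6.52, 5.51 and 5.99 in Grem1+, and with every Grem1- array dim it was at least 4.03-fold higher (adjusted p = 0.0157 over probe sets). Ptpn3 stood at 6.20, 6.45 and 4.01 in Grem1+ and at 3.11, 2.56 and 3.43 in Grem1-. Mouse 3 had the smallest difference, 0.59, and the gene did not pass (2.52, SE 0.74, adjusted p = 0.0894), with 1.55 when dim values were raised to the limit. Ptpn14 and Ptpn3 passed once the replicate block was dropped (adjusted p = 0.0241 and 0.0414). Ptpn14 also passed with probe sets averaged, on its most variable probe set, with dim values set to the limit and with the eBayes trend. Ptpn4 had overlapping groups, at 5.38, 7.70 and 8.18 in Grem1+ and at 5.78, 7.28 and 5.31 in Grem1-.

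The remaining non-receptor members did not pass. Ptpn2, the T cell phosphatase that acts on JAK and STAT proteins, stood at 10.72, 11.49 and 11.09 in Grem1+ and at 10.55, 9.88 and 10.25 in Grem1-. Every Grem1+ array was above every Grem1- array, and the difference was 0.87 (SE 0.38, limma adjusted p = 0.192), with 0.43 to 2.10 over its 4 probe sets. The mean of those probe sets passed, at 1.27 (adjusted p = 0.0282). Ptpn1, the gene of PTP1B, which acts on the insulin receptor, had overlapping groups and differed by -0.31 (SE 0.35, adjusted p = 0.596). Ptpn18, of the PEST-rich subfamily, stood at 4.61, 4.53 and 4.73 in Grem1+ and at 5.70, 6.30 and 5.48 in Grem1-. Its groups lay apart, and -1.20 (SE 0.33) missed the threshold (adjusted p = 0.0751) but passed without the replicate block (adjusted p = 0.0312). Its relative Ptpn12, which acts on focal adhesion proteins, differed by -0.61 (SE 0.35, adjusted p = 0.302), and its 4 probe sets ranged from -1.24 to 0.55. Ptpn9 and Ptpn23, which act in vesicle traffic, differed by 0.21 (SE 0.63) and 0.20 (SE 0.30), with overlapping groups.

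Of the 23 tested members, 14 had groups that did not overlap, beside 43.1% of all 10151 genes tested. Among the 14, Ptprd, Ptpn3 and Ptpru were above log2 4 only on Grem1+ arrays. They passed the filter through that group alone, so it fixed that their groups lay apart. The share over all genes was taken after the same filter. Besides the 23 tested members, 11 had no probe set that passed the filter and were not tested. For Ptpn13, Ptpn20, Ptpro, Ptprr, Ptprv and Ptprz1 every probe set was dim on all 6 arrays. These include Ptprv, an osteoblast phosphatase in rodents, at 3.24 to 3.88, Ptpro, at 2.30 to 3.97, and Ptprz1, a receptor of the growth factor pleiotrophin, at 1.54 to 2.43. The other 5 rose above the limit on 1 or 2 arrays of a probe set: Ptpn21 reached 5.01 and 4.43 in Grem1+ of mice 1 and 3, and Ptpn22, a phosphatase of lymphocytes, reached 4.66 in Grem1- of mouse 2. Ptpn5 and the secretory granule members Ptprn and Ptprn2 reached at most 4.03, 4.07 and 4.27.

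**Figure D3:**
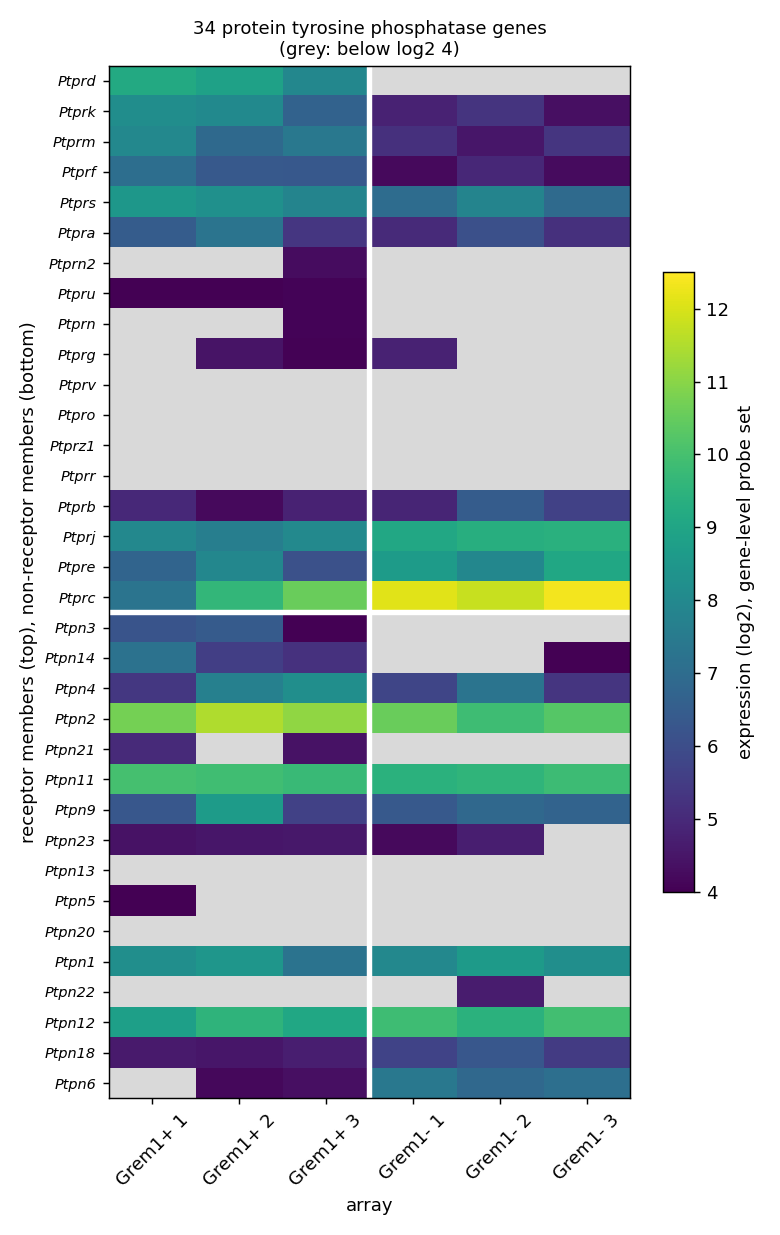
Expression (colour, log2) of the 34 members (rows, receptor-type above and non-receptor below the white line) on the 6 arrays (columns, Grem1+ left of Grem1-), with values below log2 4 in grey. Ptprd is coloured only in Grem1+, and 6 genes are grey throughout on every probe set. Colours of different genes come from different probe sets and are not compared.

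Probe sets of the same gene share its RNA and are not replicates, so they were set side by side. Of the 86 probe sets of the family 46 passed the filter and 26 were below log2 4 on all arrays. In the limma fit over all 18157 passing probe sets, 7 of the 46 were higher and 6 lower in Grem1+, 28.3% in all, beside 10.1% higher and 7.76% lower among all probe sets, 17.8% in all. They belong to 9 genes, the 6 above and Ptpn14, Ptprc and Ptpre, and 0 genes had probe sets called in both directions. Ptprd, Ptprk, Ptprj and Ptpn6 were called on 2 probe sets each. Some called probe sets passed the filter only through the group where they were high, so their groups could not overlap. These were 1424886_at and 1435537_at of Ptprd, 1455359_at of Ptpn14, 1444763_at of Ptprk and 1440165_at of Ptprc. Of 15 members with several passing probe sets, 12 had differences of the same sign on all of them, and Ptpn4, Ptpn11 and Ptpn12 did not. Sizes differed more than signs. The 3 passing probe sets of Ptprk ran from 0.81 (SE 0.34) on 1431680_a_at to 4.07 (SE 0.82) on 1444763_at. That probe set, 1444763_at, stood at 9.07, 6.15 and 4.48 in Grem1+ and was dim on all Grem1- arrays, and with values below log2 4 set to 4 its 2.57 lost the call (adjusted p = 0.153).

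**Figure D4:**
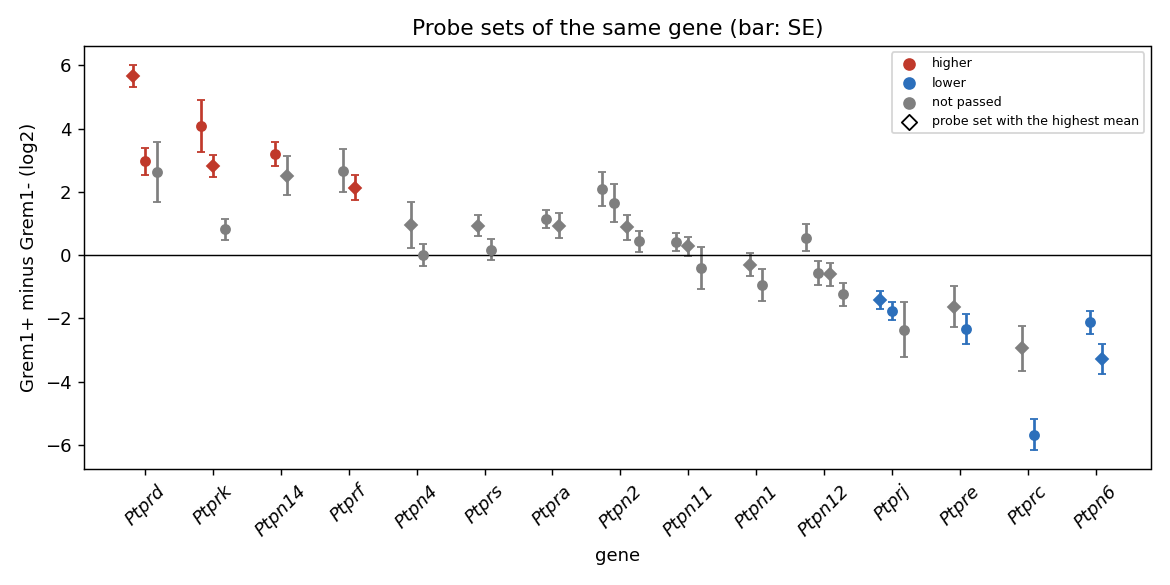
Difference between Grem1+ and Grem1- (y axis, log2, bars SE) for each passing probe set of the 15 members with several (x axis), with the probe set of the highest mean as a diamond. Red and blue mark probe sets with an adjusted p below 0.05 in the fit over probe sets, and Ptprm, which has 1 probe set, is not drawn. The 2 probe sets of Ptprc lie at -2.94 and -5.67.

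Promoter windows of the RefSeq annotation (build GRCm38.p6), from 250 bases before to 50 bases after a gene's start, were found for 29 of the 34 members, in 42 windows. They are shown for Ptprk and Ptprm, higher in Grem1+, and for Ptprc, Ptpn6 and Ptprj, lower there on at least 1 probe set, as the sequence context of genes that moved in opposite directions. These are a selection. Ptprf, also higher, has a window without a match that is not shown, and Ptprd has no window. Capitals mark matches on either strand to GAGGAA, a motif of the blood factor PU.1 and other ETS factors, or to AACAAT, a core of SOX factor motifs. TGTGGT, a core of RUNX motifs, was also searched and has no match in these 5 windows.
Ptprk, chr10:28074570-28074869, plus strand: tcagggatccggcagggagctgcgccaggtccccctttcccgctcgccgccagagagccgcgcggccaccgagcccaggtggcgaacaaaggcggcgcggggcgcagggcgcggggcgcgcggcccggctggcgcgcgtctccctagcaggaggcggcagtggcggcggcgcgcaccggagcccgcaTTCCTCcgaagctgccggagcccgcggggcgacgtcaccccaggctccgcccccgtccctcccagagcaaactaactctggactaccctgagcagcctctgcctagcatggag
Ptprm, chr17:67354410-67354709, minus strand: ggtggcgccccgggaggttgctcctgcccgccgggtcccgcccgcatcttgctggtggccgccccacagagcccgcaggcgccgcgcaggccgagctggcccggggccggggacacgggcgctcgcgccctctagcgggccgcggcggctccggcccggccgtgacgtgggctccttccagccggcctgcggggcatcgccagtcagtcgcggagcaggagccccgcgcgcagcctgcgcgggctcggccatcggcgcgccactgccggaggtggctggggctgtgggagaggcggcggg
Ptprc, chr1:138175256-138175555, minus strand: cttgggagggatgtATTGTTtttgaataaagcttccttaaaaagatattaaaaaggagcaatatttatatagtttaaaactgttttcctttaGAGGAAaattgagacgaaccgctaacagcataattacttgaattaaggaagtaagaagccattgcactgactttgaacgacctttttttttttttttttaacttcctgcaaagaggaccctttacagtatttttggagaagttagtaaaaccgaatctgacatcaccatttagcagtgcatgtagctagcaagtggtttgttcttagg
Ptpn6, chr6:124738660-124738959, minus strand: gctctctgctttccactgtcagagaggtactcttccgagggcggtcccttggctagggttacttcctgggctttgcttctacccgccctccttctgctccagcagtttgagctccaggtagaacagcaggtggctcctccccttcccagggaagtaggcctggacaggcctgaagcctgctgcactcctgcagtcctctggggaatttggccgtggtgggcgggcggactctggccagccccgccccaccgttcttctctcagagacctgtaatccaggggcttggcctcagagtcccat
Ptprj, chr2:90580546-90580845, minus strand: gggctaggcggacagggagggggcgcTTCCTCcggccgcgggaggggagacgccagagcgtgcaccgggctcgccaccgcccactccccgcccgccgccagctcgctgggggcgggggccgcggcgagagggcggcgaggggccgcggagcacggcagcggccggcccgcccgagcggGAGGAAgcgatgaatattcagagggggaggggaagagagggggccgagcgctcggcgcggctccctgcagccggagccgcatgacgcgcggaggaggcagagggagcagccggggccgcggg
GAGGAA was found in 19 of the 42 member windows, 45.2%, beside 28.3% of all 32851 windows of this length. A gene with several windows counts more than once. Untested members count too, and Ptprr, Ptprn, Ptpn22, Ptpn5 and Ptpn20 are among those with a match. The shares were not matched for G and C content. AACAAT was found in 3 windows, 7.14% beside 10.7%, and TGTGGT in 5, 11.9% beside 16.8%. The window of Ptprj holds GAGGAA on both strands, beginning 224 and 72 bases before the start, that of Ptprk holds it 63 bases before the start and that of Ptprc 158 bases before it. The windows differ in composition: G and C make up 80.7% of the Ptprm window, 79.3% of the Ptprj window, 75% of the Ptprk window and 61.7% of the Ptpn6 window, but 33.7% of the Ptprc window, beside a median of 52.7% over all windows. Genes with and without a match stand on both sides of the comparison, and a match is a description of letters, not of binding.

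Genes that act with the phosphatases were read from 5 lists. Of 59 tested members of these lists, 8 were higher and 13 lower in Grem1+, beside 11.7% and 8.51% of all genes and a median difference of 0.04 over all genes. Receptors and adaptors that bind SHP-1 or SHP-2 had 14 tested members, of which 2 were higher and 7 lower, with a median of -2.51. The inhibitory receptors Clec4a2 and Btla were at least 17.5-fold and 9.80-fold lower, being dim in Grem1+ of every mouse, Cd300a differed by -5.14 (SE 0.66) and Cd33 by -4.70 (SE 0.64). The 2 higher members, named after their values were seen, are adaptors of growth factor and insulin receptors: Gab1, at 2.96 (SE 0.27), and Irs1, at least 2.70-fold. The adjusted limma p-values of these 6 genes were at most 0.0423. The list summed to a linear signal of 889 to 1197 in Grem1+, against 3327 to 5671 in Grem1-, next to the pan-haematopoietic signals given above.

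Of 6 tested Src family kinases and their regulators 0 were higher and 0 lower (limma; median -0.77), with Src at 7.76, 3.03 and 8.09 in Grem1+ and 3.05, 3.11 and 5.07 in Grem1-, and Fyn at 4.99, 6.89 and 6.01 in Grem1+ and 6.87, 5.26 and 7.94 in Grem1-. Of 11 other cytoplasmic tyrosine kinases 1 was higher and 3 lower (median -0.64). Syk, the kinase of immune receptors, differed by -4.16 (SE 0.33), Bmx by -3.62 (SE 0.59) and Tec by -1.96 (SE 0.38), and Abl2 was higher by 1.67 (SE 0.36), with adjusted limma p-values of at most 0.0469. Abl2 lost its call under 11 of 18 alternatives and was 0.74 when its probe sets were averaged (adjusted p = 0.0987). Of 9 tested ligands and binding partners of receptor phosphatases 3 were higher and 0 lower (median 0.29). These were the proteoglycan Sdc2 (4.19, SE 0.90), pleiotrophin, Ptn (2.28, SE 0.30), and tenascin C, Tnc (2.03, SE 0.37), with adjusted limma p-values of at most 0.0471, while the contactins and 5 of the 6 Slitrk genes were dim on all 6 arrays. Sdc2 and Tnc did not pass without the replicate block (adjusted p = 0.0815 and 0.109). The groups of Tnc overlapped, with 8.69 in Grem1- of mouse 2 and 8.40 in Grem1+ of mouse 3. Sdc2 varied widely in Grem1-, at 5.11, 8.86 and 2.99, without overlap. Of 19 other phosphatases, most of them cysteine-based, 2 were higher and 3 lower (median -0.32). The cofilin phosphatases went apart, Ssh1 higher by 4.03 (SE 0.63) and Ssh2 differing by -3.78 (SE 0.58), while the MAP kinase phosphatase Dusp8 was higher by 1.82 (SE 0.30) and the cell cycle phosphatase Cdc25b at least 2.46-fold lower, with adjusted limma p-values of at most 0.0305. Averaged over its probe sets, Dusp8 was 0.85 and did not pass (adjusted p = 0.0702).

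**Figure D5:**
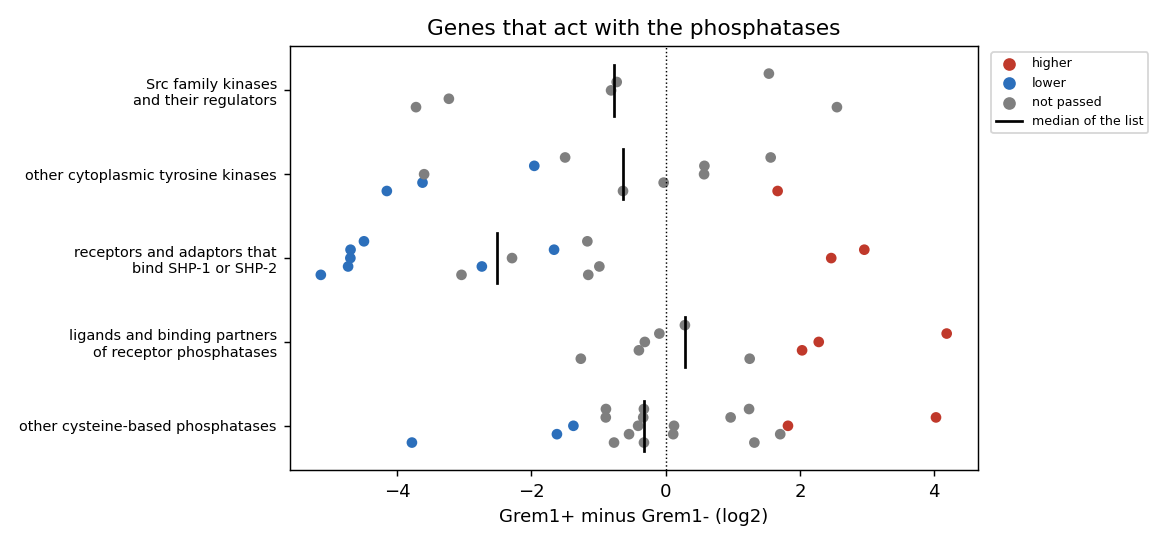
Difference between Grem1+ and Grem1- (x axis, log2) for each tested gene of 5 lists of genes that act with the phosphatases (rows), with a black line at the list median. Red and blue mark genes with an adjusted p below 0.05, and the list of SHP-1 and SHP-2 binding proteins has its median at -2.51.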

How the data were processed

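Gene expression was measured on 6 Affymetrix arrays, 1 for each of 2 sorted marrow fractions of 3 mice. The authors deposited log2 values, 1 for each probe set and array. GCRMA is named in the submitters' processing notes, its version and settings not given in the sources used here. Per the labels' protocols, RNA was amplified with a NuGEN Ovation kit before labelling. Amplification from the 3' end and background correction from probe sequence can move values near the floor. The values spanned 0.798 to 14.05, which is why the scale was taken as log2. Gene symbols came from the platform annotation: 34945 of 45101 probe sets had 1 symbol, and those with several or none and 64 control probe sets were not tested. All 86 member probe sets were found in RefSeq (GRCm38.p6) by Entrez identifier, which changed 0 symbols. A probe set was tested when it was above log2 4 on at least 3 of the 6 arrays, and of these the brightest by mean stood for its gene. Where only the 3 arrays of a single group were above log2 4, the filter fixed that the groups did not overlap. Differences are Grem1+ minus Grem1-, tested two-sided with limma 3.58.1 (lmFit and eBayes) under R 4.3.3, blocked by mouse, Benjamini-Hochberg adjusted over 10151 genes, or over 18157 probe sets where stated, at a threshold of 0.05. The fit over genes had 2 residual and 2.10 prior degrees of freedom, and the number of arrays limits the precision. Mice were paired by the numbers in the titles because the series design says the fractions were matched by mouse. Same-numbered arrays deviated from their group means with correlations of 0.014, 0.074 and 0.046, so these correlations show little pairing. Xist was high on both arrays numbered 3, at 10.60 and 11.04, and on no other array, which sets that pair apart. It does not tell mice 1 and 2 from each other. At most 0.00222% of values were identical to 6 decimals between any 2 arrays. A fold is given as "at least" where a gene passed and its lower group was dim throughout, as the mean of the other group over log2 4. Summed signals are sums of linear values over a list. The script was tested on simulated data. All members are named, with Grem1 and Pecam1 as genes tied to the names of the fractions or to the gate. From each partner list up to 4 genes past the threshold with the largest differences are named, or 2 measured genes where none passed. Gab1, Irs1, the dim partner genes and single marker genes were named after their values were seen. The members, the partner and marker lists and the tests were chosen with earlier results of these data known. Alternatives were the block, filters, normalizations, probe set choices, dim values set to the limit, other eBayes settings and leaving out each mouse.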

Additional observations from a re-analysis of the deposited data

How the results depend on the processing

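The 6 called members kept their direction under all 18 alternatives. All 6 also kept their call under quantile normalization, median centring, cyclic loess, the stricter filter, averaging over passing probe sets, the exclusion of shared probe sets, the floor at log2 4, the trend and robust eBayes settings and without the replicate block. Ptprf lost it without the filter, and Ptprf and Ptprj with the most variable probe set. Lower members numbered 4 instead of 2 without the replicate block and 4 when passing probe sets were averaged. The higher members numbered 6 in both of these settings and 5 with the floor or the trend, against 4. Calls over all genes numbered 2543 without the block, 2751 with averaged probe sets, 1913 with the floor and 2420 with the trend, against 2055. Without the filter on dim probe sets, which raises the number of tests, 7 member probe sets and 10 genes of the 5 partner lists passed, against 13 and 21. Leaving out 1 mouse, with the block or without it, gave 0 to 3 higher and 0 to 2 lower members, 0 to 8 member probe sets and 0 to 15 partner genes (0 with the block, and 15, 11 and 12 without it when mouse 1, 2 or 3 was left out). Each 0 is from limma with the block, where 0 of all genes passed with 1 residual degree of freedom. Without the block, Ptprd and Ptpn6 passed whichever mouse was left out, Ptprf and Ptprm only without mouse 2, Ptprk only without mouse 3, and Ptprj under none of the 3. Members that did not pass and changed sign were Ptpn1 (0.032 without mouse 3, and from -0.57 over the mice left out), Ptpn11 (-0.39 with the most variable probe set), Ptpn9 (-0.57 without mouse 2, and up to 0.84 without mouse 3) and Ptprg (-0.11 with the floor, -0.13 without mouse 2, -0.57 without mouse 3 and 1.10 without mouse 1), and the cause was not tested. Genes near log2 4, such as Ptpru, Ptprg and Ptpn23, are limited by signal over background.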
